A study of Mus musculus with 6 samples.

Results

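Amino acid transporters are the membrane proteins that move amino acids across the cell surface. The 10 members described here were chosen by gene symbol from 15118 genes with an expression value, with earlier results of these data known. They fall into carriers of cationic amino acids (Slc7a1 and Slc7a3) and of large neutral amino acids (Slc7a5, Slc7a6 and their partner Slc3a2). The others carry small neutral amino acids (Slc6a9, Slc1a4, Slc1a5 and Slc38a2) or cystine (Slc7a11). Each library came from 1 whole heart of an E12.5 mouse embryo of the Black-Swiss strain. The Hif1a mutant hearts (mutants 5, 8 and 10) had the genotype NKX2-5 Cre/WT with Hif1a Null/flox, and the control hearts (controls 2, 5 and 9) had NKX2-5 Cre/WT with Hif1a WT/flox. Cre from the Nkx2-5 gene, which is active in heart progenitors and heart muscle, and a floxed Hif1a allele were thus present in all 6 hearts. The null allele is carried by every cell of the mutant embryos, Cre-active or not. Hif1a encodes the subunit of the transcription factor HIF1 that low oxygen stabilises. The labels name separate hearts and nothing else about their origin, and the p-values cover only the spread seen among these samples.

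Amino acids are charged or polar and do not cross the lipid membrane unaided. Some carriers let them pass down a gradient, some couple their entry to sodium, and others exchange one amino acid for another. Several of the exchangers work only as a pair, a light chain that carries the substrate (Slc7a5, Slc7a6 or Slc7a11) and the heavy chain Slc3a2 that brings it to the cell surface. Genes of several of these carriers are known targets of the transcription factor ATF4, which is translated more when amino acids are short, and ATF4 binds composite elements with the core TGATGNAA.

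The promoter sequences are shown for the members whose windows held that core or ACGTG, the core of the hypoxia response element bound by HIF1, and for Slc7a1, whose transcript rose and whose windows held neither. RefSeq windows on GRCm38.p6 reach from 250 bases before to 50 bases after each annotated start. They covered 7 members with 11 windows and held no entry for Slc7a3, Slc7a5 and Slc1a5. Both strands were searched, the cores do not overlap each other in these windows, and capitals mark each match. Of 32851 windows in the table, 3.97% held TGATGNAA and 19.6% held ACGTG. Slc7a11 (chr3:50443564-50443863, minus strand) held TGATGNAA on both strands, first on the gene's own strand and then on the other. Slc1a4 (chr11:20332664-20332963, minus strand) held it once, on the other strand. Slc3a2 (chr19:8713848-8714147, minus strand) held ACGTG once, on the other strand. Slc7a6 (chr8:106168604-106168903, plus strand) held ACGTG at 2 places. Slc7a1 (chr5:148399855-148400154, minus strand), Slc6a9 and Slc38a2 held neither core in their windows.
Slc7a11: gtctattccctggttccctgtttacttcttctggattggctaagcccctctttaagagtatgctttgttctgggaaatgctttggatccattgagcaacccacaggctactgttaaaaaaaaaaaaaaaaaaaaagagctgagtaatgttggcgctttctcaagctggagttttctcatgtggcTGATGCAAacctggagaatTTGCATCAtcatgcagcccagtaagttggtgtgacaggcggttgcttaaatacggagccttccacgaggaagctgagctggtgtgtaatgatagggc
Slc1a4: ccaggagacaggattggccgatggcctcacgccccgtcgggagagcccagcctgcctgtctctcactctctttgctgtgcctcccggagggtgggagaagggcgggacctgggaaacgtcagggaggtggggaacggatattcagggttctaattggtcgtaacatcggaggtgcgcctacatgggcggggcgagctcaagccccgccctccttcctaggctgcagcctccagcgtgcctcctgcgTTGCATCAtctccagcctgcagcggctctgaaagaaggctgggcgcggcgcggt
Slc3a2: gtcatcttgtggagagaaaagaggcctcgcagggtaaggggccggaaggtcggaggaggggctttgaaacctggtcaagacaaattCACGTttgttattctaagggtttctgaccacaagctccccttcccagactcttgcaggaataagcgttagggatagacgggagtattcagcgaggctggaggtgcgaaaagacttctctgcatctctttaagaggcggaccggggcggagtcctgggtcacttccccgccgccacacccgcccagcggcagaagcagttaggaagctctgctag
Slc7a6: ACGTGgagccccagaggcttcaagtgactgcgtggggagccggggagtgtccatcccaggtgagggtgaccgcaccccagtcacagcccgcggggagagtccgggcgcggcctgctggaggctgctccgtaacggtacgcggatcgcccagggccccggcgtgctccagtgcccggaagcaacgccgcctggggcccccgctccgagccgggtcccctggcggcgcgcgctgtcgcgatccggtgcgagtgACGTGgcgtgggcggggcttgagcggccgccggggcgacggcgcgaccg
Slc7a1: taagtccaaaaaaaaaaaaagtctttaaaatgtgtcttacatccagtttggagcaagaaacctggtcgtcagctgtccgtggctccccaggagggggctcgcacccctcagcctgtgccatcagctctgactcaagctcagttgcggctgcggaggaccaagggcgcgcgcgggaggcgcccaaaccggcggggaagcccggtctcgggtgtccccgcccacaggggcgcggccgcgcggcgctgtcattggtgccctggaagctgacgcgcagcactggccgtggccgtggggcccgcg

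Expression is in RPKM, the reads per kilobase of the exons used for a gene, scaled to the reads of the library. The smallest steps between values gave the depth, which was lowest in mutant 8 (101900000 reads) and highest in mutant 10 (158800000 reads). Along the first principal component, which held 45.3% of the variance, mutant 8 and control 2 were the extremes. The summed RPKM of 28 genes of 5S ribosomal RNA was 31.3, 192 and 116 in mutants 5, 8 and 10. It was 10.7, 31.2 and 71.9 in controls 2, 5 and 9. The hearts had the same order by that sum as along the component, and its part in the members' values was not tested. Mutant 8 and control 9 had under 0.1 RPKM of the chromosome Y gene Eif2s3y, against 18.8 to 27.7 RPKM in the other 4 hearts. Heart muscle markers were high in all hearts (summed RPKM of 9 markers 12200, 13900 and 13900 in mutants 5, 8 and 10, against 11000, 12300 and 12800 in controls 2, 5 and 9). Hif1a itself measured 75.7, 55.0 and 77.7 RPKM in mutants 5, 8 and 10, against 61.1, 46.4 and 46.4 RPKM in controls 2, 5 and 9. That value pools all exons used for the gene and is no check of the deleted part.

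The mutant hearts had more transcript of both cationic members, the large neutral carrier Slc7a5, its heavy chain Slc3a2 and the glycine carrier Slc6a9. The values of Slc1a5, Slc38a2, Slc7a6 and Slc7a11 overlapped between the genotypes. Slc7a3 differed most, at 17.9 times its control mean in mutant hearts, and the other 4 risen members were between 1.73 and 2.27 times theirs. Of the 9 members with at least 1 RPKM in 3 or more libraries, these 5 passed an adjusted p of 0.05 in limma and were higher, none was lower, and 6 had genotypes that did not overlap. Across all 13080 genes tested, 0.818% passed (0.42% higher and 0.398% lower) and 17.0% did not overlap (7.6% higher and 9.43% lower). The members were chosen with earlier results of these data known, so these shares give a scale and no test of the members' counts. The median log2 change was 0.76 over the 9 members and −0.03 over all genes tested. Slc7a3 passed the minimum through the mutant hearts alone, so its place in these counts follows partly from the filter, and Slc7a11 was under it in every heart. The number past the threshold was 3 without mutant 10 or control 2, 5 or 9, and also 3 in the 4 hearts that express Eif2s3y.

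**Figure D1:**
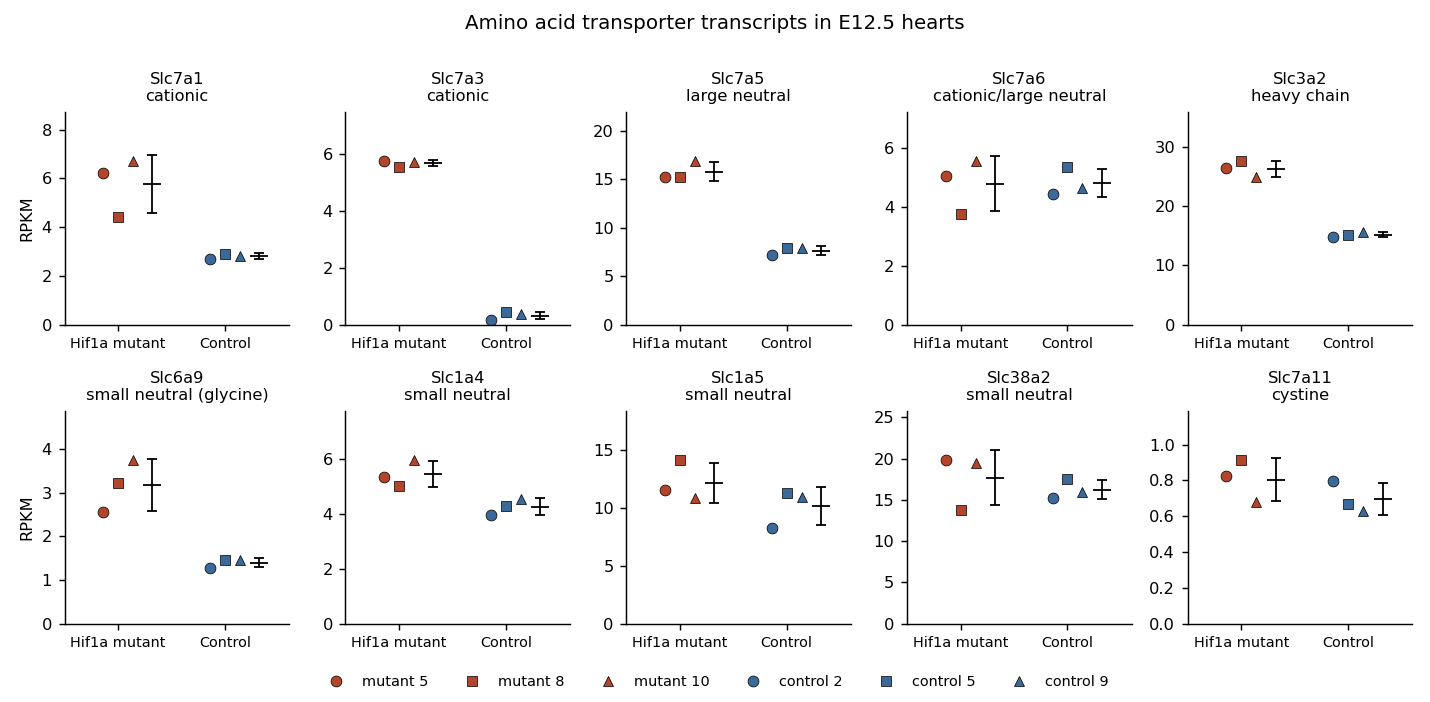
RPKM (vertical axes, each from 0) of the 10 transporters in each heart, with Hif1a mutant hearts on the left and control hearts on the right of each panel; a symbol is 1 heart, and the bar beside each group is the mean ± SD of 3 hearts. The groups stand apart for Slc7a1, Slc7a3, Slc7a5, Slc3a2, Slc6a9 and Slc1a4 and overlap for the other 4.

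Slc7a3 (ENSMUSG00000031297, mm10 chromosome X, 101079210 to 101086020, minus strand) encodes the cationic amino acid transporter CAT3, which carries arginine and lysine. It measured 5.74, 5.54 and 5.72 RPKM in mutants 5, 8 and 10, against 0.166, 0.429 and 0.356 RPKM in controls 2, 5 and 9. The mutant hearts lay close together and far above every control heart. Slc7a3 averaged 5.67 ± 0.107 RPKM in mutant hearts and 0.317 ± 0.136 RPKM in control hearts (SD, n = 3 each), and rose by 2.35 ± 0.11 (SE) on the log2(RPKM + 1) scale (limma adjusted p = 2.7e-05). The added 1 RPKM compresses this change, which was 3.85 with a pseudocount of 0.1. The control values correspond to roughly 83, 225 and 167 reads in controls 2, 5 and 9, so the low level was measured and not at the limit of counting. The hearts without Eif2s3y, mutant 8 and control 9, had Slc7a3 values close to those of the other hearts of their genotype. Slc7a3 kept its call under all 16 alternative settings, but the mutant hearts alone brought it past each minimum. Its control values also lie under the 0.5 RPKM that every listed gene reaches in 1 genotype or both.

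Slc7a1 (ENSMUSG00000041313, chromosome 5, 148327410 to 148399904, minus strand) encodes CAT1, the widely expressed carrier of the same substrates. It measured 6.21, 4.43 and 6.71 RPKM in mutants 5, 8 and 10, against 2.68, 2.91 and 2.81 RPKM in controls 2, 5 and 9. All mutant hearts lay above all control hearts, with mutant 8 nearest to them. Slc7a1 averaged 5.78 ± 1.20 RPKM in mutant hearts and 2.80 ± 0.117 RPKM in control hearts (SD, n = 3 each), with a log2 change of 0.82 ± 0.14 SE (limma adjusted p = 0.0323). The call was lost without mutant 5, mutant 10 or any control heart (limma adjusted p = 0.0534, 0.153, 0.112, 0.153 and 0.0915 without mutant 5, mutant 10, control 2, control 5 and control 9). The log2 change was 0.97 without mutant 8 and between 0.72 and 0.84 without any other heart.

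Together the cationic members Slc7a1 and Slc7a3 summed to 11.9, 9.97 and 12.4 RPKM in mutants 5, 8 and 10. In controls 2, 5 and 9 they summed to 2.85, 3.34 and 3.16 RPKM. The genotypes did not overlap (log2 difference 1.87, exact permutation test, two-sided p = 0.1, the smallest that 3 against 3 hearts can give). Slc7a3 supplied 48.0%, 55.6% and 46.0% of that sum in mutants 5, 8 and 10, against 5.82%, 12.8% and 11.2% in controls 2, 5 and 9. The ratio of Slc7a3 to Slc7a1 within a heart was 0.924, 1.25 and 0.853 in mutants 5, 8 and 10, and 0.0618, 0.147 and 0.127 in controls 2, 5 and 9. Slc7a3 was thus nearly level with Slc7a1 per unit of length in mutant hearts and a small part of the pair in control hearts. This ratio differed by 3.25 on the log2 scale (exact permutation p = 0.1, and 0.129 when adjusted over the 9 ratios computed), and by 1.52 with 1 RPKM added to both genes.

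**Figure D2:**
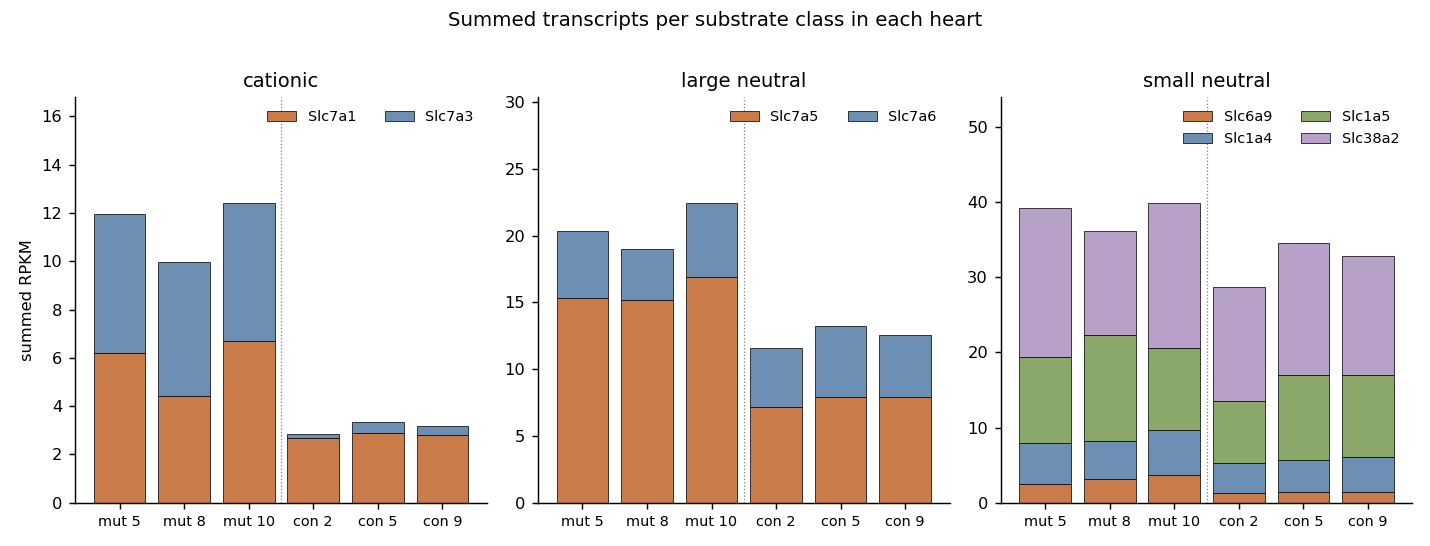
Summed RPKM (vertical axes, from 0) of the cationic, large neutral and small neutral carriers among the members in each heart. Mutant hearts are left of the dotted line and control hearts right of it, with a colour for each gene. The cationic sum lay between 9.97 and 12.4 RPKM in mutant hearts and between 2.85 and 3.34 RPKM in control hearts, and Slc7a3 is a visible part of it in mutant hearts.

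Slc7a5 (ENSMUSG00000040010, chromosome 8, 121881150 to 121907694, minus strand) encodes LAT1, the light chain that imports leucine and other large neutral amino acids in exchange for amino acids such as glutamine. It measured 15.3, 15.2 and 16.9 RPKM in mutants 5, 8 and 10, against 7.15, 7.89 and 7.91 RPKM in controls 2, 5 and 9. The groups were well apart and narrow. The log2 change was 0.96 ± 0.09 SE (limma adjusted p = 0.00205), and the call held under all 16 alternative settings.

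Slc3a2 (ENSMUSG00000010095, chromosome 19, 8706882 to 8723369, minus strand) encodes CD98, the heavy chain shared by these exchangers. It measured 26.4, 27.6 and 24.9 RPKM in mutants 5, 8 and 10, against 14.8, 15.2 and 15.6 RPKM in controls 2, 5 and 9. No mutant heart came near the control range. Its log2 change was 0.76 ± 0.09 SE (limma adjusted p = 0.00453), and over 16 alternative settings the call was lost only in the 4 hearts that express Eif2s3y (limma adjusted p = 0.0539).

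Slc7a6 (ENSMUSG00000031904, chromosome 8, 106168857 to 106198706, plus strand) encodes the light chain y+LAT2, which exchanges cationic for neutral amino acids. It measured 5.06, 3.76 and 5.57 RPKM in mutants 5, 8 and 10, against 4.45, 5.37 and 4.66 RPKM in controls 2, 5 and 9. The mutant hearts reached both below and above the control range. The log2 change was −0.02 with a 95% interval of −0.32 to 0.29 (limma adjusted p = 0.972), and its sign turned in 5 of 16 alternative settings.

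The partners could be compared within each heart, where any scaling of the library cancels. Slc7a5 was 3.03, 4.04 and 3.03 times Slc7a6 in mutants 5, 8 and 10, and 1.61, 1.47 and 1.70 times in controls 2, 5 and 9. Slc7a5 per Slc3a2 was 0.58, 0.551 and 0.678 in mutants 5, 8 and 10, against 0.484, 0.52 and 0.508 in controls 2, 5 and 9. That ratio was thus only slightly higher in mutant hearts, by 0.25 on the log2 scale, while Slc7a6 per Slc3a2 differed by −0.82 and Slc7a11 per Slc3a2 by −0.59. The genotypes did not overlap in any of these 4 ratios, each with an exact permutation p = 0.1 (0.129 adjusted over the 9 ratios). Slc7a6 and Slc7a11 themselves overlapped between the genotypes, so their lower ratios restate the higher Slc3a2. Slc7a5 and Slc7a6 summed to 20.4, 19.0 and 22.5 RPKM in mutants 5, 8 and 10, against 11.6, 13.3 and 12.6 RPKM in controls 2, 5 and 9 (log2 difference 0.72, exact permutation p = 0.1).

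**Figure D3:**
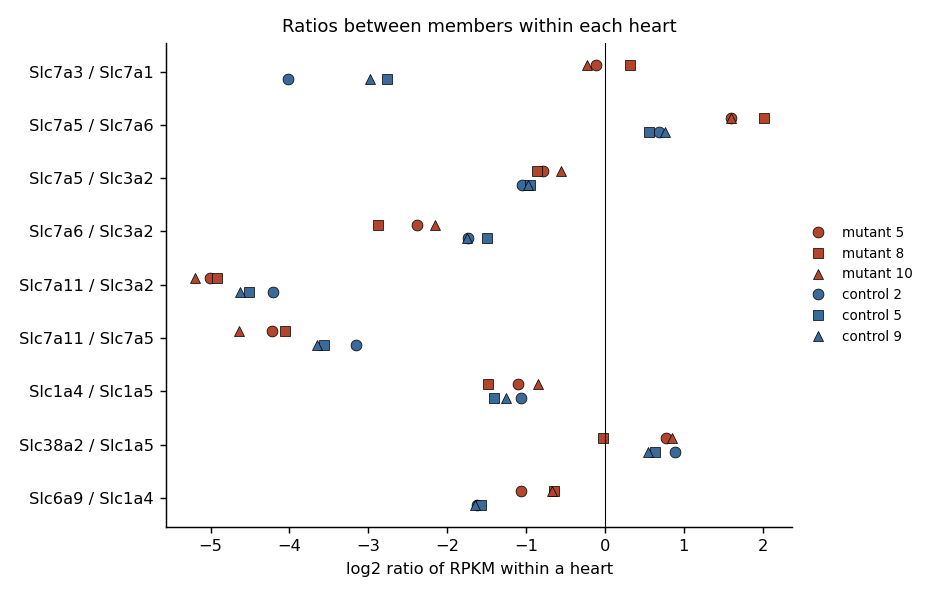
Log2 ratio of RPKM between pairs of members within each heart (horizontal axis; 0 means equal levels per unit of length), with mutant hearts drawn above control hearts in each row and a symbol for each heart. The genotypes separate in 7 of the 9 ratios and overlap for Slc1a4 / Slc1a5 and Slc38a2 / Slc1a5. Where a member past the threshold is paired with one not past it, the separation largely restates the change of the first.

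Among the small neutral carriers, Slc6a9 alone passed the threshold. Slc6a9 (ENSMUSG00000028542, chromosome 4, 117834506 to 117875198, plus strand) encodes GlyT1, which takes up glycine with sodium and chloride. It measured 2.56, 3.22 and 3.75 RPKM in mutants 5, 8 and 10, against 1.28, 1.45 and 1.46 RPKM in controls 2, 5 and 9. Every mutant heart exceeded every control heart, and the mutant hearts differed among themselves more than the controls did. The log2 change was 0.79 ± 0.12 SE (limma adjusted p = 0.0213). The call was lost without mutant 8, mutant 10 or any control heart (limma adjusted p between 0.0587 and 0.113), in the 4 hearts that express Eif2s3y (0.146) and with both extreme hearts of the first principal component left out (0.0892).

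Red blood cell precursors also use GlyT1, so erythroid markers stand beside this value. The 9 erythroid markers in the table summed to 11700, 21100 and 13700 RPKM in mutants 5, 8 and 10, against 16600, 14000 and 16100 RPKM in controls 2, 5 and 9, and none of the 8 tested passed. The erythroid anion exchanger Slc4a1 measured 3.37, 8.64 and 14.0 RPKM in mutants 5, 8 and 10, against 7.68, 7.04 and 8.23 RPKM in controls 2, 5 and 9. It had the same order in the mutant hearts as Slc6a9. In mutant 5 Slc4a1 was below and Slc6a9 above every control heart, and the part of erythroid cells in the Slc6a9 values was not tested. Slc6a9 shares 1429 of its 5141 exon bases with Ccdc24 and 511 with the non-coding Gm17114, both on the opposite strand. Ccdc24 measured 0.866, 1.07 and 1.16 RPKM in mutants 5, 8 and 10, against 0.501, 0.627 and 0.606 RPKM in controls 2, 5 and 9. Gm17114 measured 1.18, 2.48 and 2.32 RPKM in mutants 5, 8 and 10, against 0.671, 0.766 and 1.01 RPKM in controls 2, 5 and 9, and neither passed a test (Gm17114 limma adjusted p = 0.158, Ccdc24 under the filter). No source used here gives the strand of the libraries, and reads of Slc6a9 and of these genes cannot be told apart there.

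Slc1a4 (ENSMUSG00000020142, chromosome 11, 20302180 to 20332713, minus strand) encodes ASCT1, a sodium-dependent exchanger of alanine, serine and cysteine. It measured 5.37, 5.02 and 5.97 RPKM in mutants 5, 8 and 10, against 3.96, 4.30 and 4.57 RPKM in controls 2, 5 and 9. The genotypes did not overlap, but the gap between them was small. The log2 change of 0.29 (95% interval 0.06 to 0.52) did not pass over all genes (limma adjusted p = 0.325).

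Slc1a5 (ENSMUSG00000001918, chromosome 7, 16781340 to 16798274, plus strand) encodes ASCT2, the related exchanger best known for glutamine. It measured 11.5, 14.1 and 10.8 RPKM in mutants 5, 8 and 10, against 8.24, 11.3 and 10.9 RPKM in controls 2, 5 and 9. Control 2 was low and mutant 8 high, and the other 4 hearts lay between 10.8 and 11.5 RPKM. The log2 change was 0.24 with a 95% interval of −0.08 to 0.56 (limma adjusted p = 0.567). It was 0.006 with control 2 and mutant 8, the extremes of the first principal component, left out.

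Slc38a2 (ENSMUSG00000022462, chromosome 15, 96687392 to 96699730, minus strand) encodes SNAT2, which imports alanine, serine and glutamine with sodium. It measured 19.8, 13.8 and 19.4 RPKM in mutants 5, 8 and 10, against 15.2, 17.5 and 15.9 RPKM in controls 2, 5 and 9. Mutants 5 and 10 lay above the control range and mutant 8 below it. The log2 change was 0.10 with a 95% interval of −0.21 to 0.42 (limma adjusted p = 0.814).

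The 4 small neutral carriers summed to 39.2, 36.1 and 39.9 RPKM in mutants 5, 8 and 10, against 28.7, 34.6 and 32.8 RPKM in controls 2, 5 and 9 (log2 difference 0.26, exact permutation p = 0.1). After rescaling without haemoglobin genes the log2 difference was 0.22 (exact permutation p = 0.2). Slc38a2 and Slc1a5 made up most of that sum in every heart, and Slc6a9 made up 8.28% of it on average in mutant hearts and 4.37% in control hearts. Slc6a9 per Slc1a4 was 0.477, 0.641 and 0.627 in mutants 5, 8 and 10, against 0.325, 0.338 and 0.319 in controls 2, 5 and 9 (log2 difference 0.82, or 0.50 with 1 RPKM added to both genes, exact permutation p = 0.1, adjusted 0.129). The ratios of Slc1a4 and of Slc38a2 to Slc1a5 overlapped between the genotypes (exact permutation p = 0.8 for each).

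Slc7a11 (ENSMUSG00000027737, chromosome 3, 49892526 to 50443614, minus strand) encodes xCT, the light chain that imports cystine, a source of cysteine for glutathione, in exchange for glutamate. It measured 0.822, 0.913 and 0.678 RPKM in mutants 5, 8 and 10, against 0.799, 0.667 and 0.627 RPKM in controls 2, 5 and 9. The genotypes overlapped, and every heart was under the 1 RPKM minimum, so the gene was not in the main test. With no filter on low values its log2 change was 0.09 (95% interval −0.14 to 0.31, limma adjusted p = 0.757), and the exact permutation test of its log2 RPKM gave p = 0.2. The values rest on roughly 873 reads or more in each heart over its long exons. Relative to the light chain Slc7a5, it was 0.0536, 0.06 and 0.0401 in mutants 5, 8 and 10, against 0.112, 0.0845 and 0.0793 in controls 2, 5 and 9, a log2 difference of −0.85 (exact permutation p = 0.1, adjusted 0.129). This lower ratio restates the higher Slc7a5.

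By level per unit of length, Slc3a2 was the highest member in mutant hearts (26.3 RPKM), followed by Slc38a2 (17.7) and Slc7a5 (15.8), whose ranges overlapped, and then Slc1a5 (12.1). Slc7a1, Slc7a3, Slc1a4 and Slc7a6 (5.78, 5.67, 5.46 and 4.80 RPKM) followed with overlapping neighbours, and Slc6a9 (3.18) and Slc7a11 (0.804) came last. In control hearts Slc38a2 (16.2 RPKM) and Slc3a2 (15.2) overlapped at the top, followed by Slc1a5 (10.2) and Slc7a5 (7.65). Slc7a6 (4.83) and Slc1a4 (4.27) overlapped next, then came Slc7a1 (2.80), Slc6a9 (1.40), Slc7a11 (0.698) and, lowest of all, Slc7a3 (0.317).

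The members did not share a single pattern among the mutant hearts. Against the control mean on the log2(RPKM + 1) scale, mutant 8 had the smallest deviation of the mutant hearts in Slc7a1 (0.52, against 0.92 and 1.02 in mutants 5 and 10), and negative ones in Slc7a6 (−0.29) and Slc38a2 (−0.22). The same heart had the largest in Slc3a2 (0.82) and Slc1a5 (0.44). Mutant 8 was also the library with the fewest reads and an extreme of the first principal component, and the part of either in these values was not tested. The median deviation over the 9 tested members was 0.57, 0.52 and 0.68 in mutants 5, 8 and 10, and −0.09, 0.04 and 0.04 in controls 2, 5 and 9.

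The 6 other tested genes nearest to that median profile over the 6 hearts, by root mean square difference in log2 units and leaving out predicted symbols, were Yars (0.047), Bex1 (0.059), Gars (0.060), Hax1 (0.067), Iars (0.069) and Rhbdd1 (0.080). The members themselves lay between 0.150 (Slc3a2) and 1.24 (Slc7a3) from it. Gars, the glycyl-tRNA synthetase, measured 107, 112 and 122 RPKM in mutants 5, 8 and 10, against 72.3, 71.6 and 78.9 RPKM in controls 2, 5 and 9. The 6 points behind each distance are the hearts that also define the members' changes, so these distances describe likeness only.

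Other amino acid transporters did not pass the threshold. Of 56 further carrier symbols listed, 40 of the cell surface and 16 of mitochondria and lysosomes, 34 were in the table and 27 were tested. Older and newer symbols of a gene were listed separately. None passed in limma over all genes, and 13 log2 changes were positive, with a median of 0.00. Over all genes tested 0.818% passed and 42.6% were positive, so no call among 27 carriers is near the general share. The genotypes did not overlap in 4 of the 27 (1 higher and 3 lower), against 17.0% of all genes. This list too was chosen with earlier results of these data known. At an unadjusted p of 0.05, 2 of them (Slc38a5 and Slc36a4) and 1463 of all 13080 genes passed. Slc38a5, a sodium-coupled carrier of glutamine and other small neutral amino acids, came nearest. It measured 4.46, 4.05 and 3.02 RPKM in mutants 5, 8 and 10, against 6.35, 6.72 and 7.87 RPKM in controls 2, 5 and 9. All mutant hearts lay below all control hearts, with a log2 change of −0.73 ± 0.13 SE (limma adjusted p = 0.0504). It was past the threshold in 5 of 16 alternative settings, among them rescaling without haemoglobin genes and leaving out mutant 5. The proton-coupled Slc36a4 had a log2 change of −0.27 (limma adjusted p = 0.428), the aspartate and glutamate carrier of mitochondria Slc25a12 one of 0.21 (0.495), and the light chains Slc7a7 and Slc7a8 ones of −0.22 and −0.13 (0.536 and 0.645). The mitochondrial glycine carrier Slc25a38 had a log2 change of 0.19 (limma adjusted p = 0.644).

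**Figure D4:**
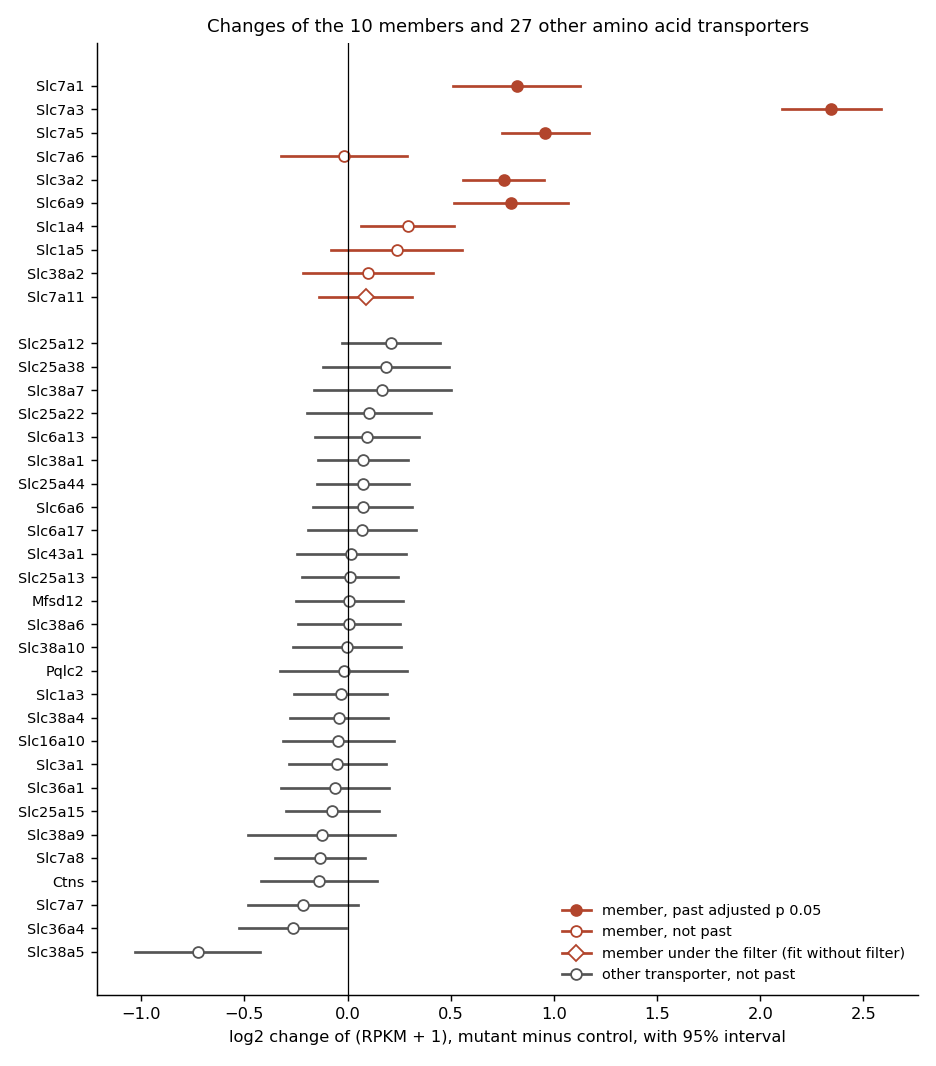
Log2 change of RPKM + 1, mutant minus control, with its 95% interval from limma (horizontal axis) for the 10 members at the top and the 27 tested other transporters below; filled circles passed an adjusted p of 0.05 over all genes, and Slc7a11 comes from the fit without a filter. Slc7a3 lies farthest right at 2.35, 5 members are filled, and Slc38a5 lies farthest left at −0.73.

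In these whole hearts fewer cells of a type and less RNA per cell cannot be told apart. Of 10 macrophage marker symbols listed 8 were tested, none passed and all 8 had negative log2 changes. The 9 in the table summed to 27.1, 24.3 and 12.6 RPKM in mutants 5, 8 and 10. In controls 2, 5 and 9 they summed to 33.8, 35.8 and 36.8 RPKM. The 6 epicardial and mesenchymal markers summed to 163, 208 and 137 RPKM in mutants 5, 8 and 10. In controls 2, 5 and 9 they summed to 234, 244 and 259 RPKM. None was past the threshold, and all 6 had negative log2 changes. Col1a1 and Col1a2 made up most of that sum in every heart, while Wt1, Tbx18, Tcf21 and Pdgfra overlapped between the genotypes. The 7 endothelial markers summed to between 102 and 125 RPKM in mutant hearts and between 115 and 134 RPKM in control hearts. None of them passed and 6 had negative log2 changes. Cldn5 (−0.79, limma adjusted p = 0.0643), Kdr and Cdh5 were lower without overlap, and the others overlapped. Of 5 liver markers 3 were in the table, with sums of 3.89, 4.24 and 2.48 RPKM in mutants 5, 8 and 10, against 5.69, 3.34 and 2.08 RPKM in controls 2, 5 and 9, and Alb and Apoa1 were not listed. Of the 9 heart muscle markers none passed and 3 had negative log2 changes. Myl7 (0.42, limma adjusted p = 0.268) and Actc1 (0.27, 0.428) were higher without overlap, and the other heart muscle markers overlapped. Over all genes tested 42.6% had positive log2 changes, and the genotypes did not overlap in 17.0% (7.6% higher and 9.43% lower). The macrophage sum, the epicardial and mesenchymal sum (mostly collagen), Cldn5, Kdr and Cdh5 were lower in mutant hearts. Myl7, Actc1 and the members that changed were higher. The part of these cell types in the members' values was not tested.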

How the data were processed

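RNA was measured in 3 Hif1a mutant and 3 control hearts. Total RNA was extracted with TRIzol and made into Illumina libraries, per the labels' protocols, and the submitters' processing notes name Trim Galore, TopHat2 and mm10 without versions. How reads were counted, on which annotation and with which strand setting is not stated in the labels. The authors deposited RPKM on a linear scale, a unit taken from the values, since the header names none. Every listed gene has a geometric mean of 0.5 RPKM or more in 1 genotype or both, and no value is 0. The depth rests on low values of single-exon genes (143 to 202 per library), each times length (end minus start). Trial steps were compared by the share of these within 0.1 of a whole multiple of the step. The step with the largest share, 93.5% to 98.2%, gave the implied reads. The median share over the trial steps was 18.9% to 20.3%. Approximate reads per gene use the exons listed for it. Such depths limit counting error only.

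A gene was tested if 3 or more libraries had 1 RPKM or more (13080 genes, 2038 left out). On log2(RPKM + 1) a limma model with trend was fitted to all 6 hearts without covariates (limma 3.58.1, R 4.3.3). Adjusted p is Benjamini-Hochberg over all tested genes, two-sided, with a threshold of 0.05. The fit was tested on simulated data, where 57.8% of log2 changes of 0.6 and 86.2% of log2 changes of 1 were recovered. False calls were 4.59% of those made. The simulated noise was independent for each gene and heart, with no component shared between genes. Class sums and ratios within hearts were tested by exact permutation with scipy 1.17.1. Gene positions come from GENCODE M21 on mm10, which held 14877 of the gene identifiers, including all members, and promoter sequences from RefSeq. The members and lists were chosen with earlier results of these data known. Named genes are the members, Hif1a, the other carriers past the threshold or with the 6 smallest p besides, and the 6 genes nearest to the members' median profile. Further carriers, markers and genes on the opposite strand were named after their values were seen.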

Additional observations from a re-analysis of the deposited data

How the results depend on the processing

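The alternatives were median centring, rescaling without haemoglobin genes, other filters and pseudocounts, limma without trend or with a robust prior, subsets of 4 hearts and leaving out each heart. Every member past the threshold kept its sign in all settings that tested it. Slc7a3 and Slc7a5 kept their calls, Slc3a2 lost its call in 1 of 16, Slc7a1 in 5 of 15 and Slc6a9 in 7 of 15, and no other member gained one. The number of members past the threshold was 5, against 3 with a minimum of 5 RPKM, which leaves Slc7a1 and Slc6a9 untested, 3 in the 4 hearts with chromosome Y expression, and 3 to 4 when leaving out a heart. The number of all genes past the threshold was 107, against 54 in the 4 hearts with chromosome Y expression and 45 to 198 when leaving out a heart. Higher genes were 55 of 107, against 57 of 91 after median centring and 54 of 133 after rescaling without haemoglobin genes. Among other carriers 1 passed, Slc38a5 and lower, with rescaling, a minimum of 5 RPKM, a pseudocount of 5 or a robust prior, and 0 to 1 when leaving out a heart. Slc7a6, never past the threshold, had log2 changes of 0.018 after median centring, 0.099 and 0.072 in the subsets of 4 hearts (chromosome Y expression, between the ends of the first component), 0.050 without control 5, and −0.114 to 0.119 over the fits that leave out a heart (highest without mutant 8), and the cause was not tested. Counting Slc7a6 with the cationic class gave log2 differences of 1.03 (cationic) and 1.05 (large neutral), by construction. With a pseudocount of 5, by construction, the log2 changes of Slc7a3, Slc7a1 and Slc6a9 were 1.005, 0.46 and 0.35. With a pseudocount of 1 the difference in Slc7a3 / Slc7a1 was 1.52 and in Slc6a9 / Slc1a4 0.50. No paired analysis was possible because the genotypes share only 1 replicate number.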

Other observations

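Over all 44 listed transporters in the table, the highest levels per unit of length belonged to carriers that are not among the 10. Slc38a4, a sodium-coupled carrier of neutral amino acids, averaged 49.4 ± 5.52 RPKM in mutant hearts and 50.7 ± 2.61 RPKM in control hearts (SD, n = 3 each). Slc25a13, the aspartate and glutamate carrier of mitochondria, averaged 31.2 ± 3.39 RPKM in mutant hearts and 30.8 ± 1.28 RPKM in control hearts. Slc3a2 came next, and Slc38a10 averaged 18.8 ± 1.20 RPKM in mutant hearts and 19.0 ± 2.69 RPKM in control hearts. The differences between genotypes in Slc38a4, Slc25a13 and Slc38a10 were smaller than the spread between hearts of 1 genotype.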
